A study of Mus musculus with 4 samples.

Results

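The interferon-induced GTPases studied here are 9 mouse genes, the guanylate-binding protein genes Gbp2, Gbp3, Gbp4, Gbp6 and Gbp7 and the immunity-related GTPase (IRG) genes Iigp1, Irgm1, Igtp and Tgtp1. Of these, 7 are among the 18193 genes that have a probe set naming 1 gene alone. They were chosen on these same arrays, after their levels in ezrinT567A-GFP and in GFP cells had been seen, so their difference between those groups is described and not tested. Of the 13 probe sets that name a member, each gene is represented by the one with the highest mean over the 4 arrays, with the others given beside it. The remaining 2 lie outside that number. Gbp4 is named only together with Gbp8, and Tgtp1 only together with Tgtp2, so the values of those 2 probe sets cannot be assigned to 1 gene.

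K7M2 is a mouse osteosarcoma cell line, and all 4 samples were K7M2 cells grown in DMEM with serum. The control cells over-expressed GFP (1 array), although the series' design text calls the control wild type. The other cells over-expressed ezrinT567A-GFP (3 arrays, replicates 1 to 3), an ezrin fused to GFP in which alanine replaces the threonine that regulates binding to actin. The labels do not say whether the replicates were separate cultures, nor name the promoter of the constructs or whether the cells were clones or pools. The control has no replicate, so an error below is the SD of the 3 ezrinT567A-GFP arrays and leaves out any spread of GFP.

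Both families are GTP-hydrolysing proteins that interferons induce, and their classical role is in cell-autonomous immunity, where they gather on vacuoles that hold parasites or bacteria and break them. The effector IRGs, such as Iigp1 and Tgtp1, load onto the vacuole, while the regulatory IRGs, such as Irgm1 and Igtp, stay on the cell's own membranes and keep the effectors inactive there. Guanylate-binding proteins belong to the dynamin superfamily of large GTPases, and several of them are held in membranes by a prenyl tail. Their genes are read through 2 kinds of promoter element, the interferon-stimulated response element (ISRE), bound by interferon regulatory factors and by a complex that holds Stat2 and Irf9, and the gamma-activated site (GAS), which serves mainly the response to interferon gamma.

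The promoters are shown because the members were higher together in these arrays and because both elements can be looked for in them. RefSeq promoter sequences of build GRCm38.p6 were searched for 6 of the 9 members, 7 gene starts in all. No promoter of Gbp4, Gbp6 or Iigp1, the member with the largest difference, was searched, so the counts below leave them out. The 250 bases before each of the 7 starts were searched on both strands for GAAANNGAAA (ISRE) and TTCNNNGAA (GAS). The ISRE letters lay before the start of all 6 searched members, at 6 of 7 starts, against 2.98% of 32851 promoters of equal length. GAS letters lay before 3 of the members, Gbp7, Igtp and Tgtp1, against 7.02% of all promoters. A match describes letters and is no sign of binding. Each stretch below has 60 bases, 5′ to 3′ on the gene's strand, with ISRE and GAS letters in capitals, and the 10 ISRE letters of Gbp3 and Irgm1 occur as 2 overlapping copies.

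Gbp2, chr3:142620569-142620628, plus strand: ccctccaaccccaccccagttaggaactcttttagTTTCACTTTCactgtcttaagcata
Gbp3, chr3:142559970-142560029, plus strand: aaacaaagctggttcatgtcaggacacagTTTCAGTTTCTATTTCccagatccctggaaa
Gbp7, chr3:142530248-142530307, plus strand: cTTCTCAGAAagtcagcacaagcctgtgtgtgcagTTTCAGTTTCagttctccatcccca
Irgm1, chr11:48871421-48871480, minus strand: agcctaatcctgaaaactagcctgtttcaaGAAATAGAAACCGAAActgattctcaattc
Igtp, chr11:58199487-58199546, plus strand: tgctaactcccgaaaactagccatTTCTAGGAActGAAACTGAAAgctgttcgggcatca
Tgtp1, chr11:48992299-48992358, minus strand: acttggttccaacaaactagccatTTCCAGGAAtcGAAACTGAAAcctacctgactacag

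The last ISRE base lay 15 bases before the start in Irgm1, 25 in Igtp, 30 in Gbp3, 44 in Gbp7, 50 in Gbp2 and 68 in Tgtp1. In Igtp and Tgtp1 the GAS letters stood directly upstream of the ISRE, with 2 bases between them. Gbp7 held 2 GAS matches, the nearer one ending 79 bases before the start. The other start of Gbp3 had neither element in its window. The letters were not particular to the members. Among relatives that are not members, Gbp2b, Irgm2, Tgtp2 and Gm12185 also held ISRE letters and Ifi47 held neither element, while the log2 difference of ezrinT567A-GFP from GFP was 1.51 for Ifi47 and 0.12 for Gm12185.

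**Figure D1:**
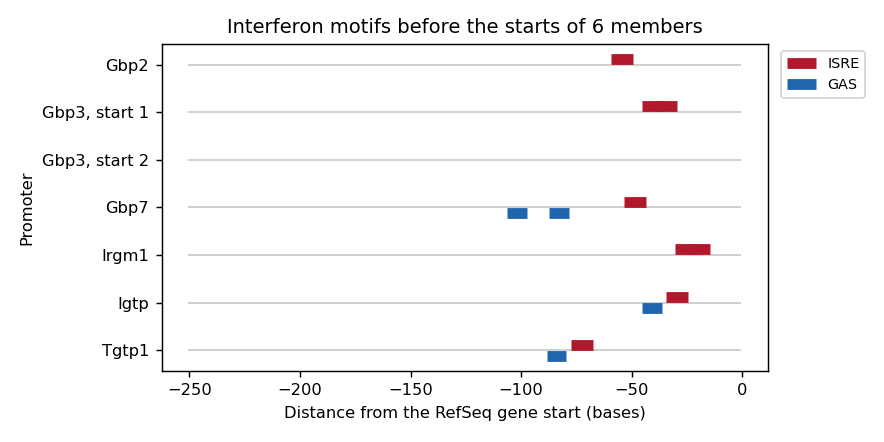
Positions of ISRE (red) and GAS (blue) letters in the 250 bases before 7 RefSeq starts of 6 members, with the distance from the gene start in bases on the horizontal axis. ISRE letters ended between 15 and 68 bases before the start wherever they were present.

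The arrays had medians between 3.85 and 3.89 and lower quartiles between 2.55 and 2.62 on the log2 scale, and the median level of a named gene was 5.04. The hybridization spike-ins, bacterial and phage transcripts added to every sample, averaged 9.32 on the GFP array and 10.1, 11.1 and 10.4 on replicates 1, 2 and 3. The 18S rRNA probe sets stood at 9.09 in GFP and at 7.65, 11.3 and 7.76 in the replicates, so replicate 2 was highest for both kinds of control. Beta-actin controls differed little, from 12.9 to 13.0. No gene passed limma over all 18193 genes at an adjusted p under 0.05 (0% called, lowest adjusted p = 0.0805), where 2540 had an unadjusted p under 0.05.

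Among the effector IRGs, Iigp1 had the largest difference of all members. By its brighter probe set Iigp1 stood at 6.10 in GFP and at 8.33, 8.91 and 8.19 in ezrinT567A-GFP replicates 1, 2 and 3. All 3 arrays lay well above GFP, with replicate 2 highest. The mean of 8.48 ± 0.38 (SD, n = 3) was 2.38 above GFP on the log2 scale, which is 5.19-fold. The dimmer Iigp1 probe set gave 5.21 in GFP and 6.86, 7.38 and 6.77 in the replicates, a difference of 1.80. Both probe sets placed Iigp1, an effector that coats parasite vacuoles, above GFP in every replicate.

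The probe set shared by Tgtp1 and Tgtp2, a nearly identical pair of effector genes, was 6.41 in GFP and 7.59, 8.01 and 7.61 in replicates 1, 2 and 3. Replicates 1 and 3 were alike here and replicate 2 was higher. The mean of 7.73 ± 0.24 (SD, n = 3) exceeded GFP by 1.32, or 2.50-fold. How much of this came from either gene was not measured.

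The regulatory IRGs were represented by Irgm1 and Igtp, each with 1 probe set. Igtp was 6.70 in GFP and 7.83, 8.63 and 8.25 in replicates 1, 2 and 3, a mean of 8.24 ± 0.40 (SD, n = 3). Its difference of 1.54 (2.90-fold) was carried by all 3 arrays but ranged from 1.13 in replicate 1 to 1.93 in replicate 2. Irgm1 was 8.05 in GFP and 8.79, 9.30 and 9.07 in the replicates, a mean of 9.06 ± 0.25 (SD, n = 3). With a difference of 1.005, or 2.01-fold, Irgm1 was the member closest to the 2-fold limit on its upper side, and replicate 1 alone was only 0.74 above GFP. Irgm1 is the regulator best known for its part in resistance to mycobacteria and in autophagy.

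Gbp2, Gbp3 and Gbp7 lie in 1 cluster on chromosome 3 and behaved alike. Gbp7, which takes part in host defence by phagocytes, was 7.47 in GFP and 8.95, 9.49 and 9.29 in replicates 1, 2 and 3. Its mean of 9.24 ± 0.27 (SD, n = 3) lay 1.77 above GFP, 3.42-fold, and its other probe set gave a difference of 1.64. Gbp3 was 7.85 in GFP and 9.14, 9.51 and 9.18 in the replicates, so that replicates 1 and 3 nearly coincided. The mean of Gbp3, 9.28 ± 0.21 (SD, n = 3), was 1.43 above GFP (2.69-fold). Gbp2, a prenylated member that is recruited to parasite vacuoles, was 6.99 in GFP and 8.11, 8.56 and 8.15 in the replicates. Its difference was 1.28 (2.43-fold) with a mean of 8.27 ± 0.25 (SD, n = 3), and the other Gbp2 probe set gave 1.33. For each of these genes replicate 2 was the highest of the 4 arrays, by every probe set.

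The guanylate-binding protein genes of chromosome 5 did not share 1 pattern. Gbp6 by its brighter probe set was 4.44 in GFP and 5.95, 5.42 and 5.23 in replicates 1, 2 and 3. Here replicate 1, not replicate 2, was highest, and the same was true of the other Gbp6 probe set at 3.83 in GFP and 5.84, 5.44 and 5.38 in the replicates. The difference was 1.096 ± 0.37 (SD, n = 3), or 2.14-fold, by the first probe set and 1.72 by the second. The probe set shared by Gbp4 and Gbp8 was dim on every array, at 4.10 in GFP and 4.12, 4.35 and 4.20 in the replicates. Its difference of 0.12 ± 0.12 (SD, n = 3) was about the size of the spread between replicates, and replicate 1 exceeded GFP by only 0.02. Gbp8, no member, has a probe set of its own, which was at 2.23 in GFP and 1.91 to 2.16 in the replicates, below the lower quartile of the arrays.

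**Figure D2:**
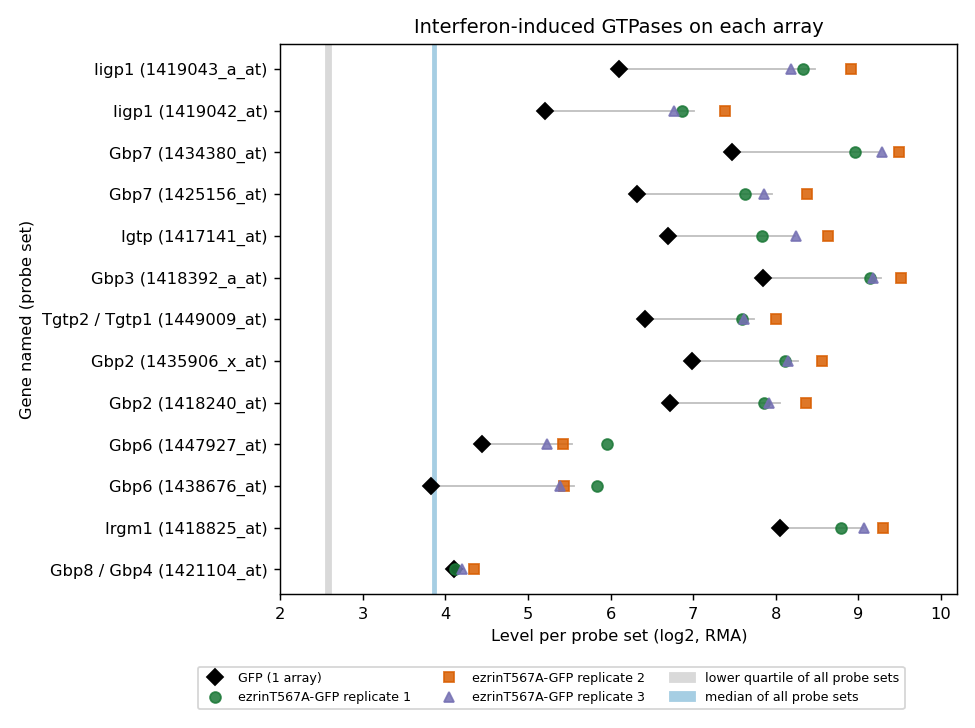
Log2 level of each of the 13 probe sets that name a member (rows, to be read within a row and not between rows) on the GFP array (black) and on ezrinT567A-GFP replicates 1 to 3 (coloured), with the arrays' lower quartile and median as bands. In 12 rows the GFP array lies clearly to the left of the 3 replicates, and in the row shared by Gbp8 and Gbp4 all 4 arrays lie between 4.10 and 4.35.

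In all, 8 of the 9 members were at least 2-fold higher with every ezrinT567A-GFP array above GFP, as were 7 of the 7 with a probe set of their own. The same rule was met by 0.967% of the 18193 genes in this direction and 0.693% in the other. Since the members were selected on this difference, nothing is read from the contrast of these shares. Just inside the limit were Irgm1 at 1.005 and Gbp6 at 1.096, and the only member outside it, far below, was the probe set of Gbp4 and Gbp8 at 0.12. Of the members, 8 had a mean over the 4 arrays above the median level of all genes, the exception again being that shared probe set, although Gbp6 was below that level in GFP. The median difference of the 9 members was 1.32, against 0.03 over all genes.

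Ordered by their difference, the members ran from Iigp1 through Gbp7, Igtp, Gbp3, Tgtp1 with Tgtp2, Gbp2, Gbp6 and Irgm1 to Gbp4 with Gbp8. Only 2 of the 8 steps in that order were wider than the larger SD of the 2 neighbours. These were the first, 0.60 between Iigp1 and Gbp7, and the last, 0.89 between Irgm1 and Gbp4 with Gbp8. The members between Gbp7 and Irgm1 were closer to their neighbours than that SD. The order depended on the probe set that stands for each gene. The other Iigp1 probe set was at 1.80, beside 1.77 for Gbp7, and in replicate 3 it lay below Gbp7 (1.56 against 1.82). The other Gbp6 probe set, at 1.72, lay above Igtp at 1.54. The other Gbp2 probe set, at 1.33, lay just above Tgtp1 with Tgtp2 at 1.32. Since all members were read on the same arrays, which differ in a shared way, the order was also read within each array. All 3 readings subtract the same GFP array, so an error in it shifts them together and they are not independent. By the brightest probe sets, the order held in all 3 arrays for Gbp7 over Igtp and for Gbp3 over Tgtp1 with Tgtp2. Tgtp1 with Tgtp2 also stood over Gbp2 in all 3, by a mean of only 0.04. The first and last steps held in all 3 as well. Igtp over Gbp3 and Gbp2 over Gbp6 held in 2 arrays, and Gbp6 over Irgm1 in 1.

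The 3 replicates differed among themselves in a shared way. The members' median difference from GFP was 1.18 in replicate 1, 1.59 in replicate 2 and 1.20 in replicate 3. In each array this median was the value of the probe set shared by Tgtp1 and Tgtp2. Replicate 2 was the highest of the 3 for 8 of the 9 members, against 34.7% of all genes and 51.7% of the genes at least 2-fold higher. Gbp6 was the exception. Spike-ins and 18S were likewise brightest on replicate 2, and spike-ins were dimmest on the GFP array. With the arrays' mean spike-in level added to the fit, which leaves 1 residual degree of freedom, the median difference was 0.77 and 3 members stayed at least 2-fold higher, Iigp1 at 1.55, Gbp6 at 1.54 and Gbp7 at 1.19. Igtp was then at 0.63, Irgm1 at 0.43 and Gbp4 with Gbp8 at -0.15. Without replicate 2 the median was 1.19 with 7 members at least 2-fold higher.

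**Figure D3:**
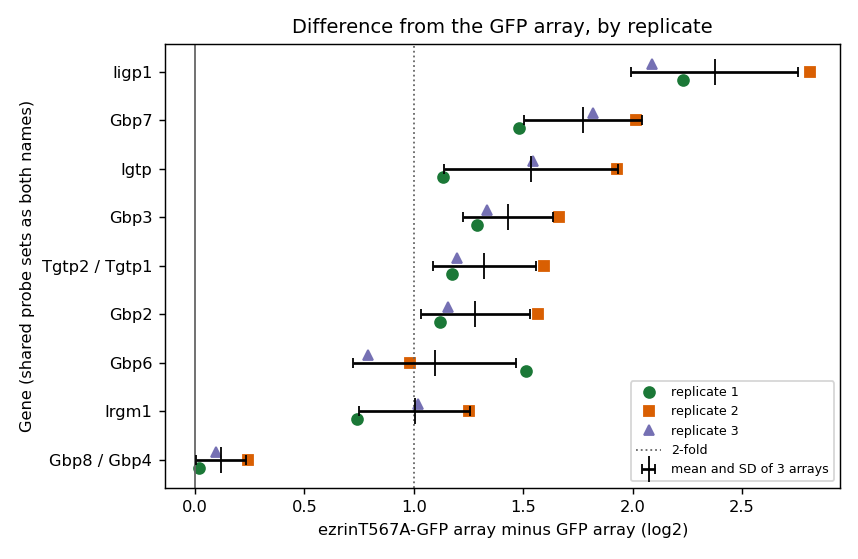
Difference of each ezrinT567A-GFP array from the GFP array in log2 units (horizontal axis), with the mean and SD of the 3 arrays as black bars, for the probe set that stands for each member. Orange squares (replicate 2) are rightmost in 8 of 9 rows, and Gbp6 has replicate 1 (green) rightmost.

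Other interferon-induced GTPases and their relatives ranged from -0.23, below every member, to 2.11, just under Iigp1. Of 18 listed genes 8 had a probe set of their own, 4 were at least 2-fold higher, 0 were 2-fold lower and the median difference was 1.001. Gm4951 (Ifgga2), from the same chromosome 18 cluster as Iigp1, was 4.87 in GFP and 6.75, 7.47 and 6.71 in replicates 1, 2 and 3. That is a difference of 2.11 (SE 0.36, limma adjusted p = 0.218), next to Iigp1 in size. Irgm2, the remaining regulatory IRG, was 6.71 in GFP and 7.93, 8.56 and 8.37 in the replicates, a difference of 1.58 (SE 0.28, limma adjusted p = 0.223). Gbp2b, which sits between Gbp3 and Gbp2 in the chromosome 3 cluster, was 6.70 in GFP and 7.86, 8.49 and 7.94 in the replicates, a difference of 1.39. Each of these stood in the same order of replicates as its neighbour among the members, replicate 2 first.

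The Mx proteins, dynamin-like antiviral GTPases, were represented by Mx2 with a difference of 1.26 and by Mx1 with 0.74 from a dim 2.75 in GFP. Irgq, a divergent IRG relative, was at 0.57 by one probe set and 0.13 by the other. The testis-type IRG gene Irgc, which interferon is not known to induce, was at -0.01, and Gbp8 at -0.23. At an unadjusted limma p under 0.05, 6 of the 8 genes were higher and 0 lower, against 7.46% higher and 6.50% lower of all genes. After adjustment over all genes 0 passed. These genes were listed with earlier results of these data known, so nothing is read from those counts. Ifi47, a further IRG gene on chromosome 11 that was added after the arrays had been read, was 6.90 in GFP and 7.92, 8.90 and 8.40 in the replicates, a difference of 1.51. Gm12185, added with it, was dim at 3.60 in GFP and differed by 0.12. With the spike-in level in the fit Gm4951 was at 1.13, Irgm2 and Mx2 each at 0.90, Gbp2b at 0.58, Ifi47 at 0.39 and Gm12185 at -0.10, and the median of the 8 listed genes was 0.67.

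By position, the 4 measured genes of the chromosome 3 cluster had differences from 1.28 to 1.77, and the 5 of the chromosome 11 IRG genes from 0.12 to 1.58. Iigp1 and Gm4951 on chromosome 18 stood at 2.38 and 2.11. On chromosome 5, Gbp6 at 1.096 and Gbp8 at -0.23 were the genes with a probe set of their own. The remaining dynamin-superfamily GTPases, which shape membranes, were also listed. Of 13 measured, 0 were 2-fold apart in either direction and the median was 0.06. The differences ran from -0.30 for the endoplasmic reticulum atlastin Atl3 to 0.59 for the endosomal Ehd4. Since the members were selected on this difference, nothing is read from the contrast between the members and these GTPases.

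Interferon-related transcription factors, listed together with the MHC gene activators Nlrc5 and Ciita, were next in order. Of 10 measured factors, 3 were at least 2-fold higher (Stat2, Irf7 and Nlrc5) and 0 were 2-fold lower, with a median of 0.54. Stat2, a subunit of the complex that binds ISREs, was 4.62 in GFP and 5.97, 7.26 and 6.63 in replicates 1, 2 and 3, a difference of 2.003 (SE 0.52, limma adjusted p = 0.280). With the spike-in level in the fit Stat2 stood at 0.53, under 2-fold. Stat2 repeated the order of replicates seen in 7 of the 9 members and in the spike-ins, with replicate 2 highest and replicate 1 lowest. Irf7, the amplifier of type I interferon, was 7.61 in GFP and 9.01, 9.64 and 9.15 in the replicates, and Nlrc5, the activator of MHC class I genes, was higher by 1.12 (SE 0.16, limma adjusted p = 0.187). In the same spike-in fit Irf7 was at 0.87, Nlrc5 at 0.80 and Batf2 at 0.38.

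Irf9, the DNA-binding partner of Stat2, was higher by 0.66 and Batf2 by 0.98, each in all 3 arrays. Irf1, a factor that interferon gamma induces and on which several GBP genes depend, was bright on every array, at 8.17 in GFP and 8.50 to 8.62 in the replicates, a difference of 0.41. Irf8 (-0.14), Irf3 (-0.04), Irf2 (0.03) and the class II transactivator Ciita (0.23) differed less. Further Irf3 and Ciita probe sets reached 0.55 and -0.13. At an unadjusted limma p under 0.05, 6 factors were higher, against 7.46% of all genes, and 0 passed limma adjusted over all genes.

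Upstream of them, the interferon genes themselves were mostly dim. Ifng was at 1.87 in GFP and 1.97 to 2.19 in the replicates, below the lower quartile of the arrays. Ifnb1 was at 3.58 in GFP and 4.04, 4.52 and 4.08 in the replicates, a difference of 0.63, around the median of all probe sets. Of 10 measured interferon genes 0 were 2-fold apart, 7 were higher and 3 lower, and 1, Ifnz, lay above the median level of all genes. Ifnz was at 4.98 in GFP and 5.36, 5.64 and 5.82 in replicates 1, 2 and 3, a difference of 0.62. Ifna4, dim at 3.11 in GFP, was higher by 0.42 with all 3 arrays above GFP. Among 9 receptor and kinase genes also 0 were 2-fold apart. The type I receptor chains Ifnar1 (0.62) and Ifnar2 (0.68), and Tyk2 (0.51), the kinase that serves Ifnar1, were higher in all 3 arrays, although other probe sets of them gave only 0.05, 0.27 and 0.14. Ifngr1 (-0.42), the ligand-binding chain for interferon gamma, and Jak2 (-0.49), a kinase of that receptor, were lower in all 3. The other chain of that receptor, Ifngr2 (0.11), and its other kinase, Jak1 (0.29), were higher in all 3. The highest value of the list was that of Il10rb, a receptor chain shared with type III interferon, at 0.77 by one probe set and -0.04 by another. The medians were 0.14 for the interferon genes and 0.29 for receptors and kinases. Among 6 feedback inhibitors the median was -0.08. The exception was Usp18, which damps signalling at Ifnar2 and was higher by 2.43, while Socs1, the inhibitor of Jak kinases, was at -0.19. At an unadjusted limma p under 0.05, 2 interferon genes (Ifnz and Ifna4), 4 receptor and kinase genes and 1 feedback inhibitor were higher. At the same limit 1 receptor or kinase gene was lower. Of all genes 7.46% were higher and 6.50% lower at that limit, and limma called 0 in these lists after adjustment.

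Genes were also grouped by the interferon that chiefly induces them. Of 17 measured genes induced chiefly by type I interferon 15 were at least 2-fold higher, with a median of 1.66. The largest differences were those of Ifit3 (2.70), Usp18, Ifit1 (2.38) and Rsad2 (2.25). With the spike-in level in the fit the median of this list was 1.07. Of 12 measured genes induced chiefly by interferon gamma 0 were 2-fold apart and the median was 0.10. Only 1 of these 12, Irf1, lay above the median level of all genes, so a difference in most of them may not be detectable at this signal. The checkpoint ligand gene Cd274 was highest in difference, at 0.70 from 3.85 in GFP, and by their brightest probe sets Cxcl9 (0.13), Ido1 (0.06), Nos2 (0.15) and H2-Aa (-0.07) differed little. At an unadjusted limma p under 0.05, 17 of the type I list and 1 of the interferon gamma list were higher, against 7.46% of all genes. Of either list 0 passed limma adjusted over all genes. The lists were chosen with earlier results of these data known, so nothing is read from such counts in any list. Whether the 2 lists differ was not tested.

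Proteins that work with GBPs and IRGs gave mixed values. In the list of vacuole targeting and LC3 conjugation, the machinery that IRGs and GBPs need to reach vacuoles, 1 of 19 genes was at least 2-fold higher and the median was 0.36. Trim21, an antibody receptor and ubiquitin ligase that interferon also induces, was higher by 1.04 (SE 0.24, limma adjusted p = 0.260) but by 0.46 with the spike-in level in the fit, and Map1lc3a followed with 0.97. Atg5 (0.37), Atg7 (0.21) and Atg3 (-0.09), which attach LC3 to membranes, differed less. Calcoco1 (0.81), Atg12 (0.77), Sqstm1 (0.69), Map1lc3b (0.67) and Gabarapl1 (0.63) were higher in all 3 arrays by their brightest probe sets. Their lowest probe sets gave -0.15, 0.19, -0.24, 0.35 and 0.22. Of the 19 genes 16 were higher and 3 lower, against 10201 and 7984 of all 18193 genes. The 6 prenylation genes, whose enzymes fit GBPs with their lipid tail, ran from 0.12 to 0.60 with a median of 0.23 and 0 at 2-fold. Pggt1b, the subunit particular to the enzyme that attaches geranylgeranyl tails, was higher by 0.50 and Fnta, shared by both transferases, by 0.60.

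Of 9 inflammasome partners, with a median of 0.10, 1 was 2-fold higher. This was Casp4, the mouse caspase-11 gene that senses lipopolysaccharide after GBPs have opened bacteria. Casp4 was 5.82 in GFP and 7.89, 7.28 and 6.95 in replicates 1, 2 and 3, a difference of 1.55 (SE 0.40, limma adjusted p = 0.277). Its order of replicates was that of Gbp6, with replicate 1 highest. Casp1 was higher by 0.72, while Aim2, which binds cytosolic DNA, stayed at 1.96 to 2.04 on all arrays, below their lower quartile.

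Markers of other cells that could carry GBP and IRG transcripts were mostly dim, with exceptions among those of macrophages. In bulk RNA a difference in the share of cells cannot be told apart from one in RNA per cell. Summed over 14 macrophage and dendritic cell markers, the log2 levels were 60.5 in GFP and 59.3, 61.0 and 60.01 in replicates 1, 2 and 3. Ptprc (2.22 in GFP, 2.10 to 2.13 in the replicates), Adgre1 (2.76 and 2.64 to 2.76) and Itgam (2.43 and 2.34 to 2.76) were near or below the lower quartile of the arrays. Lyz2 (4.69 in GFP, 4.62 to 4.72 in the replicates), Cx3cr1 (4.27 and 4.28) and Cd68 (3.89 and 3.81 to 4.13) were near or above the median of all probe sets. Only 2 of the 14, Csf1r and Cd14, lay above the median level of all genes. Csf1r, the receptor for macrophage colony-stimulating factor, was 11.9 in GFP and 11.9, 12.2 and 12.1 in replicates 1, 2 and 3. Cd14, a lipopolysaccharide co-receptor, was 7.16 in GFP and 8.12, 8.18 and 8.01 in the replicates, while Mrc1, the mannose receptor, was 4.09 in GFP and 2.52, 2.63 and 2.69. Cd14 was thus higher and Mrc1 lower in every replicate (limma adjusted p = 0.187 and 0.153), and their part in the members' difference was not tested. The list's median was 0.04. The 11 markers of T, B and NK cells and 8 endothelial markers had 0 genes above that level and 0 at 2-fold, with medians of 0.08 and 0.02. Among 9 osteoblast and mesenchymal markers, with a median of -0.02, the cells showed Col1a2 (12.3 in GFP), Col1a1 (11.3) and Vim (13.1) and Sparc (11.3) at high levels and Sp7, an osteoblast transcription factor, at 5.05, while Ibsp and Alpl were dim. The differences in the list ran from -0.27 for Sparc, lower in all 3 arrays, to 0.26 for Sp7.

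**Figure D4:**
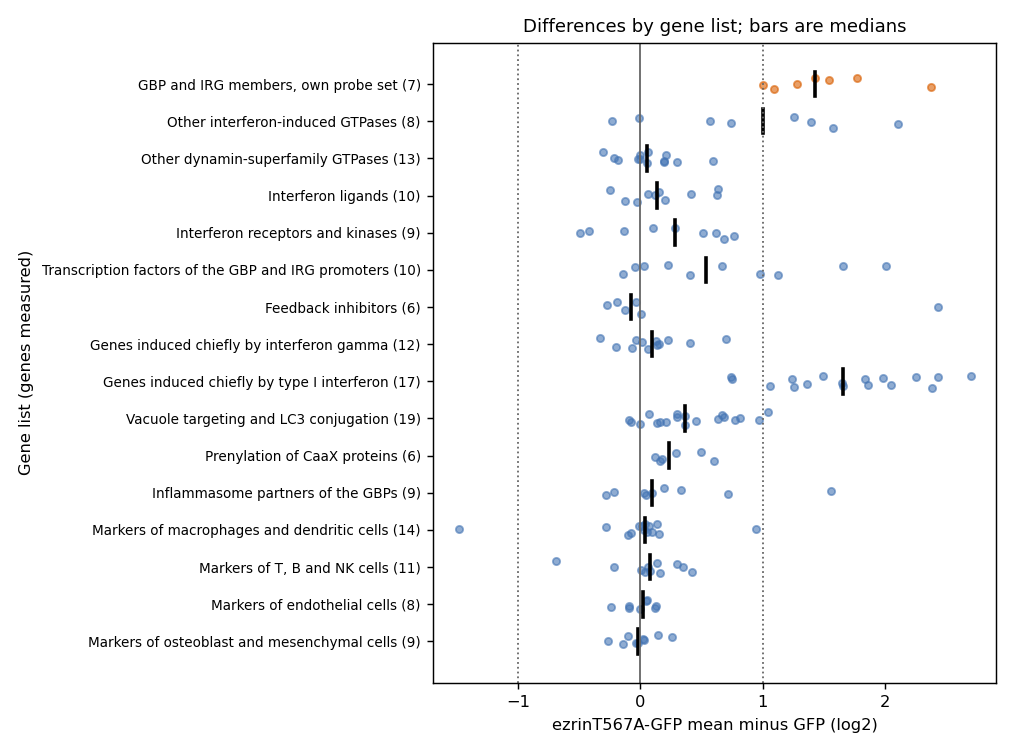
Difference between the ezrinT567A-GFP mean and GFP in log2 units (horizontal axis) for each measured gene of the lists (rows, number of genes in brackets), with black bars at the list medians and dotted lines at 2-fold. The GBP and IRG members (orange, median 1.43 for the 7 with their own probe set) and the genes induced chiefly by type I interferon (median 1.66) lie to the right, and the marker lists have medians from -0.02 to 0.08.

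The genes closest in pattern to the members were taken from 9089 others with a mean above the median level, by the mean absolute distance between their 3 differences from GFP and the members' median differences. In each array that median was the value of the probe set shared by Tgtp1 and Tgtp2. The nearest gene was Nmi, an interferon-induced partner of STAT proteins, at a distance of 0.01, with differences of 1.16, 1.60 and 1.20 in replicates 1, 2 and 3. It was followed by Tmem140, AA467197, Trafd1, Ctso, Dpp7, Gbp2b and Psmb10, an immunoproteasome subunit, at distances from 0.04 to 0.09. The level was the mean over all 4 arrays, so Tmem140 (4.14 in GFP) and AA467197 (4.63) passed it only through the ezrinT567A-GFP arrays. The likeness of some genes depended on the probe set. With the mean of each gene's probe sets, Tmem140 differed by 0.60 instead of 1.32 and Trafd1 by 0.62 instead of 1.35. Ctso then differed by 0.65 instead of 1.29 and Dpp7 by 0.92 instead of 1.24. The differences of Nmi, AA467197, Gbp2b and Psmb10 were unchanged. The distance is to differences on which the members were chosen, and the likeness is a description with no test.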

How the data were processed

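The series holds 4 one-colour Affymetrix arrays of K7M2 cells, prepared with one-cycle biotin labelling per the labels' protocols. The authors deposited 1 log2 value for each probe set, computed with RMA per the submitters' processing notes. The scale was read from the range of the values. Which program ran RMA is not given in the sources used here. Because RMA equalises the arrays' distributions, differences in RNA per cell are hidden. The number of arrays limits the precision.

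Gene symbols came from GEO's annotation of the platform. Of 45101 probe sets, 34945 named 1 gene, 932 several, 9160 none, and 64 were controls. Each of 18193 genes was represented by its brightest probe set of 1 gene; Gbp4 and Tgtp1 were read from shared ones. Across all genes, limma 3.58.1 in R 4.3.3 (lmFit, eBayes with a mean trend, two-sided, Benjamini-Hochberg adjustment, threshold 0.05) compared ezrinT567A-GFP (3 arrays) with GFP (1 array), with 2 residual degrees of freedom, all from ezrinT567A-GFP. With 1 array against 3 an exact permutation cannot go below p = 0.25. SE is the moderated standard error, and as the labels name no separate cultures, the spread behind each p may be technical. The script was tested on simulated data. A gene was counted as 2-fold apart at a log2 difference of at least 1 with all 3 arrays on one side of GFP.

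The 16 gene lists, of which the members are 1, were chosen with earlier results of these data known, and 1 further list was added after the files were read. From each list the genes 2-fold apart were named, up to 4, besides all other interferon-induced GTPases and transcription factors; further list genes named were chosen after their values were seen. The 8 genes most like the members were set by distance. Alternatives were quantile normalization, median centring, the mean of probe sets, plain _at probe sets, no dim genes, other priors, a spike-in covariate and leaving out each replicate. Figures used matplotlib 3.10.9 in Python 3.11.15.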

Additional observations from a re-analysis of the deposited data

How the results depend on the processing

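The members' median difference was 1.32, with 8 of 9 at least 2-fold higher. Quantile normalization, median centring, the mean of probe sets, plain _at probe sets and leaving out a replicate gave medians from 1.19 to 1.41 and 7 or 8 members at 2-fold. The filter on dim genes uses the mean of all arrays, which drops Gbp4 and keeps Gbp6 through the ezrinT567A-GFP arrays, so it says nothing about stability. Other priors were run over all genes only. The 7 members with their own probe set, an alternative chosen after seeing the data, had a median of 1.43. Adding the spike-in level to the fit gave a median of 0.77 with 3 members at 2-fold, and the probe set of Gbp4 and Gbp8 turned to -0.15; with 4 arrays this fit has 1 residual degree of freedom, and the cause was not tested. Over all genes limma called 0, but 34 after quantile normalization, 30 after median centring, 6 for the mean of probe sets, 3 without dim genes and 9 under a robust prior. No paired analysis was possible because GFP has 1 array. Iigp1 was 1.80 with plain _at probe sets, which left out Gbp3.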

Other observations

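The probe set shared by Gvin1, a very large interferon-inducible GTPase, and Gm4070 was 5.51 in GFP and 7.17, 5.56 and 5.70 in ezrinT567A-GFP replicates 1, 2 and 3. Replicate 1 alone stood well above GFP. Gbp6, by both of its probe sets, and Casp4 were also highest in replicate 1, whereas 7 of the 9 members were lowest there. The comparison of these genes was picked with their values in view.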
